A study of Mus musculus with 9 samples.

Results

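Calb1, Calb2, Maf, Mafa and Shox2 are 5 genes that large touch neurons of the dorsal root ganglion (DRG) are known to use, and they were followed here through RNAseq of mouse DRG. Their rows were taken from the deposited count table by gene name, 5 of 55247 genes, and each of the 5 reached at least 100 counts in at least 1 library, as did 13200 genes in all. The group was selected on what is known of these genes and on the measured counts of Calb2, which were lower in the mutant, so every value that compares mutant libraries with controls is given as a description, with no p-value, and no support is drawn from the counts of these genes past a criterion in those comparisons. The name of the group, genes of rapidly adapting mechanoreceptors, comes from what is known of these genes: in whole ganglia the counts cannot say which neurons held the transcripts.

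Poly(A) RNA was sequenced from DRG of E18.5 embryos in 9 libraries, 3 for each of 3 genotypes. WT embryos carried neither engineered allele. Isl1Cre/+ embryos carried Cre recombinase in 1 copy of Isl1, a gene switched on in postmitotic sensory neurons and also in motor neurons. Isl1Cre/+::Meis2LoxP/LoxP embryos, called mutant here, had the same Cre copy and in addition LoxP sites around a homeodomain exon of Meis2 on each copy. The mutant and the Isl1Cre/+ control therefore share 1 Isl1 copy that holds Cre, which WT embryos do not have, and the Meis2 allele was bred onto C57BL/6. Whether a library came from 1 embryo or from a pool is not given in the sources used here, and if libraries were not separate embryos, p-values measure only the spread between these samples.

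Low-threshold mechanoreceptors detect light touch, hair movement and vibration, most of them through myelinated fibres. Those that adapt rapidly end as lanceolate endings around hairs, in Meissner corpuscles and in Pacinian corpuscles, fire at the onset and the end of a stimulus, and arise early from neurons that express the receptor tyrosine kinase Ret. Their identity is set by transcription factors, among them Maf (also called c-Maf) and Mafa of the large Maf family of basic leucine zipper proteins and the homeodomain protein Shox2, which acts in neurons that keep the neurotrophin receptor Ntrk2. Calb1 (calbindin D28k) and Calb2 (calretinin) are cytosolic EF-hand proteins that bind calcium ions and mark subsets of these fibres, including those of Pacinian corpuscles and lanceolate endings. None of the 5 is confined to the DRG: Calb1, Calb2, Maf and Shox2 are also expressed by spinal interneurons, and Maf by macrophages and cartilage.

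The genes lie at different places in the genome (GRCm38, the assembly also called mm10, with the GENCODE M21 annotation). Calb2 (ENSMUSG00000003657.9) spans chr8:110137502-110168210 on the minus strand with 1743 exonic bases. Calb1 (ENSMUSG00000028222.2) spans chr4:15881264-15908064 on the plus strand with 4846 exonic bases. Maf (ENSMUSG00000055435.6) spans chr8:115682942-115707794 on the minus strand with 8241 exonic bases. Mafa (ENSMUSG00000047591.5) is a gene without introns, 2739 bases at chr15:75745490-75748228 on the minus strand. Shox2 (ENSMUSG00000027833.16) spans chr3:66971727-66981771 on the minus strand with 3311 exonic bases.

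Since Calb1 and Calb2, and likewise Maf and Mafa, descend from common ancestors, their sequences were compared to see whether reads could be assigned to either. The coding sequence of Calb1 (783 bases) and that of Calb2 (813 bases) were identical at 68.4% of the 769 bases aligned without a gap, and their longest identical run was 12 bases. The EF-hand loops, the short stretches that coordinate calcium, show how the 2 genes differ. A search with the EF-hand loop pattern found 4 such loops in Calb1 and 5 in Calb2. The lines give 2 pairs of matching loops, each inside 1 coding exon, as coding sequence from GENCODE with the bases that differ between the genes in capitals.
Calb1 loop, chr4:15895644-15895679, plus strand: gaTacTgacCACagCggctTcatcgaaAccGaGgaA
Calb2 loop, chr8:110149362-110149397, minus strand: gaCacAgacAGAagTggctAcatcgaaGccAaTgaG
Calb1 loop, chr4:15900781-15900816, plus strand: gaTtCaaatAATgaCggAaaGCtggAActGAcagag
Calb2 loop, chr8:110148051-110148086, minus strand: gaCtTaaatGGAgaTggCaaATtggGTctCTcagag
Of the 36 bases of a loop, 11 differed in the upper pair and 13 in the lower pair.

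The coding sequences of Maf (1140 bases) and Mafa (1077 bases) were closer, with 76.1% identity over 966 aligned bases. Their longest identical run, shown in capitals within its coding exon, had 21 bases.
Maf, chr8:115705817-115705849, minus strand: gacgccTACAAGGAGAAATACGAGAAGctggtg
Mafa, chr15:75746951-75746983, minus strand: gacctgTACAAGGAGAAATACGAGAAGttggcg
No stretch of 50 bases of Calb1, Calb2 or Mafa transcripts occurred in a transcript of another gene on either strand, and on its own strand Shox2 shared none. For Maf 0.269% of such stretches occurred on the same strand in other transcripts. On the opposite strand, 440 exonic bases of Maf (5.34%) overlap the antisense transcript Gm15655, and 153 exonic bases of Shox2 (4.62%) overlap Rsrc1. The strand setting of the counting is not given in the sources used here, so reads from these 2 overlaps cannot be assigned to a strand. Of the 5 genes, Shox2 was the only one in the RefSeq promoter table (GRCm38.p6). Its promoter, from 250 bases before to 50 bases after the start, held neither TGACAG, the core bound by Meis factors, nor TGCTGA, a core of Maf recognition elements, on either strand, whereas 19.2% and 19.5% of the 32851 promoters of the table held them.

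The libraries held between 23854607 and 29103444 counts. In a rank correlation over the tested genes, WT 1 and mutant 2 stood apart, with a median correlation with the other libraries of 0.981 and 0.979 against 0.991 to 0.995 for the other 7, and the differences between mutant and WT of the 5 genes and of the gene lists are therefore given with and without these 2 libraries. Meis2, the targeted gene, had 2746 to 2919 counts in WT, 2537 to 2857 in Isl1Cre/+ and 1004 to 1084 in mutant libraries, and Isl1, which carries the Cre, averaged 262 ± 30.4 CPM (counts per 1000000 of the effective library size after TMM scaling, SD, n = 3) in WT against 186 ± 19.1 in Isl1Cre/+ and 188 ± 24.7 in mutant. Among DRG markers, all 8 proprioceptor and all 11 nociceptor genes were detected, with summed levels of 710 to 834 and 2787 to 3524 CPM. By the criterion of the study, a fold change of at least 1.2 with an unadjusted p under 0.05, here in edgeR's quasi-likelihood test, 0.318% of tested genes differed between mutant and WT (0.0606% higher, 0.258% lower), 1.67% between mutant and Isl1Cre/+ (1.41% higher, 0.265% lower) and 1.40% between Isl1Cre/+ and WT (0.258% higher, 1.14% lower).

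Per kilobase of exon, which is the scale on which different genes can be compared, Maf was the most abundant of the 5, with a mean level over the 9 libraries of 11.8 CPM per kb (10.1 to 13.1). Shox2 followed at 6.94 CPM per kb (5.70 to 9.20), Calb1 at 6.01 (4.46 to 6.87), Mafa at 4.04 (3.15 to 6.23) and Calb2 at 1.93 (1.01 to 3.13). Maf lay above Shox2, and Mafa above Calb2, in 9 of 9 libraries. Shox2 lay above Calb1, and Calb1 above Mafa, in 8 of 9 libraries, and the ranges of these neighbours overlap, so their order was not separated by the spread between libraries. The mean level per kb of Maf was 6.08 times that of Calb2. Among all tested genes the mean level per kb of Maf lay at the 67.9th percentile, that of Shox2 at the 51.9th and that of Calb2 at the 15.7th, so Calb2 was a low gene in these ganglia.

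**Figure D1:**
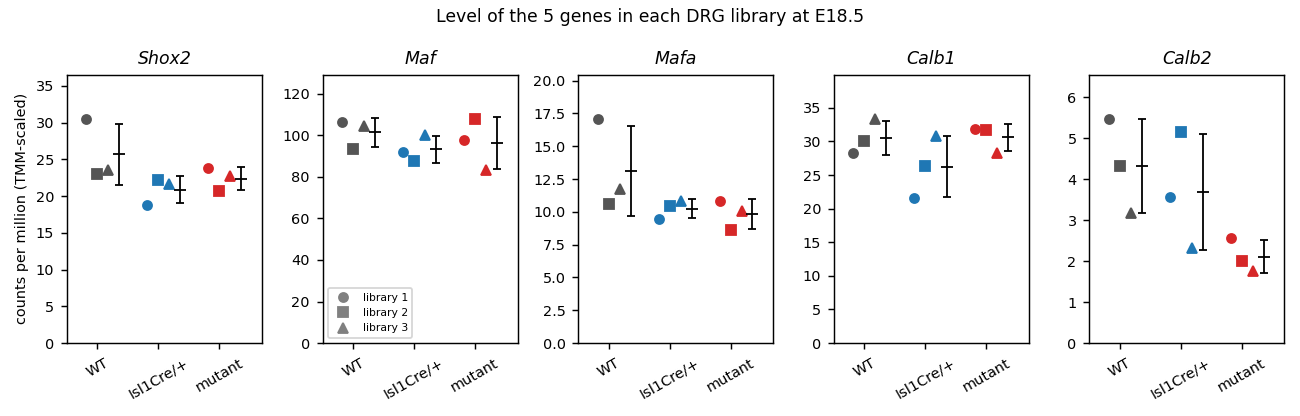
CPM in each of the 9 DRG libraries, in a panel per gene, with genotype on the x axis. Symbols stand for libraries 1 to 3 of a genotype, and the bar beside them for mean and SD. The 3 mutant libraries of Calb2 lie between 1.76 and 2.56 CPM, below the 3 WT libraries at 3.16 to 5.46 CPM, the difference for which Calb2 was chosen. For the other 4 genes mutant and WT libraries overlap.

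Shox2, the homeodomain factor of Ntrk2 neurons, had 809, 649 and 679 counts in WT 1 to 3, then 554, 620 and 614 in Isl1Cre/+ 1 to 3, then 633, 543 and 554 in mutant 1 to 3. On the CPM scale this was 25.7 ± 4.15 in WT, 20.9 ± 1.78 in Isl1Cre/+ and 22.4 ± 1.61 in mutant (SD, n = 3). WT 1 was the highest of all libraries at 30.5 CPM, and the other 8 lay between 18.9 and 23.8 CPM. Every Isl1Cre/+ library lay below every WT library, while mutant libraries overlapped those of either control.

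Maf, the bZIP factor on which rapidly adapting mechanoreceptors are known to depend, had the highest counts of the group, with 2821, 2643 and 3000 for WT, while Isl1Cre/+ libraries had 2696, 2448 and 2840 and mutant libraries 2605, 2833 and 2027. Its mean level was 101 ± 6.81 CPM in WT, 93.2 ± 6.46 in Isl1Cre/+ and 96.3 ± 12.3 in mutant. The 3 genotypes overlapped, and mutant libraries included both the lowest value, 83.2 CPM in mutant 3, and the highest, 108 CPM in mutant 2.

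Mafa, which is found in Ret-expressing mechanoreceptors, had 453, 299 and 338 counts in WT libraries, 278, 292 and 307 in those of Isl1Cre/+ and 289, 227 and 246 in those of the mutant. The mean level was 13.1 ± 3.45 CPM in WT, 10.2 ± 0.704 in Isl1Cre/+ and 9.86 ± 1.14 in mutant. As for Shox2, WT 1 stood above all others, at 17.1 CPM against 8.63 to 11.7 CPM in the remaining 8 libraries. WT 2, at 10.6 CPM, lay inside the ranges of the other genotypes.

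Calb1 had 752, 848 and 958 counts in WT libraries, 635, 736 and 871 in those of Isl1Cre/+ and 848, 834 and 689 in those of the mutant. Its mean level was 30.5 ± 2.53 CPM in WT and 30.6 ± 2.03 CPM in mutant, with 26.2 ± 4.56 CPM in Isl1Cre/+. The mutant libraries, at 28.3 to 31.9 CPM, lay beside the WT libraries at 28.3 to 33.3 CPM. Isl1Cre/+ 1 was the lowest of all libraries at 21.6 CPM.

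Calb2 had 145, 122 and 91 counts in WT libraries, 105, 144 and 66 in those of Isl1Cre/+ and 68, 53 and 43 in those of the mutant. The mean level was 4.31 ± 1.15 CPM in WT, 3.68 ± 1.41 in Isl1Cre/+ and 2.11 ± 0.405 in mutant. All 3 mutant libraries lay below all 3 WT libraries. Against Isl1Cre/+ they overlapped, because Isl1Cre/+ 3 at 2.33 CPM fell below mutant 1 at 2.56 CPM.

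The precision differed between the genes. The coefficient of variation of Calb2 was 26.6% in WT, 38.3% in Isl1Cre/+ and 19.2% in mutant, where counting error alone would give 9.15%, 9.76% and 13.5%. For Maf it was 6.72%, 6.93% and 12.8% against counting errors of 1.88% to 2.005%. Within genotypes the SD on the log2 scale was 0.42 for Calb2, 0.24 for Mafa, 0.17 for Calb1, 0.16 for Shox2 and 0.14 for Maf. The variance between libraries of a genotype was 8.59 times counting error for Shox2, 8.59 for Calb2, 9.89 for Mafa, 10.7 for Calb1 and 21.7 for Maf (chi-square per degree of freedom), beside a median of 8.02 over all tested genes. Calb2 was thus the gene measured with the widest spread, and in its mutant libraries, with 43 to 68 counts, counting error made up a large part of it.

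The mutant differs from WT both in Meis2 and in the Cre that 1 Isl1 copy holds, and a comparison of mutant with WT cannot separate them. On the log2 scale Calb2 differed by -1.03 (SE 0.27, 95% interval -1.66 to -0.40), a mutant level of 0.491 times that of WT (95% interval 0.317 to 0.760). Mafa differed by -0.41 (SE 0.20, interval -0.88 to 0.05) and Shox2 by -0.20 (SE 0.13, interval -0.51 to 0.11). Maf differed by -0.07 (SE 0.11, interval -0.34 to 0.19) and Calb1 by 0.00 (SE 0.10, interval -0.23 to 0.24). Calb2 was thus 1 of 5 genes to pass the criterion and 1 of 5 whose libraries did not overlap, where 0.318% and 2.76% of all tested genes did so in either direction. As Calb2 was chosen for this difference, nothing follows from these shares. The intervals of the other 4 genes span 0, and that of Mafa reaches from a mutant level of 0.544 times WT to one of 1.04 times WT.

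Leaving out WT 1 and mutant 2 changed the genes unequally. Without them, the difference of Calb2 was -0.78 (SE 0.29), that of Maf -0.12 and that of Calb1 -0.07. The differences of Mafa and Shox2 shrank to -0.09 and 0.00. Without WT 1 alone, Mafa was at -0.18 and Shox2 at -0.06, and without mutant 2 alone they were at -0.30 and -0.12. Over all 15 alternatives Mafa stayed below 0, with its largest difference, -0.55, without WT 2. Maf changed sign without mutant 3, to 0.02, and Calb1 stayed between -0.07 and 0.07. The difference of Calb2, for which it was chosen, ranged over its 14 alternatives from -1.21 without WT 3 to -0.78 without WT 1 and mutant 2.

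**Figure D2:**
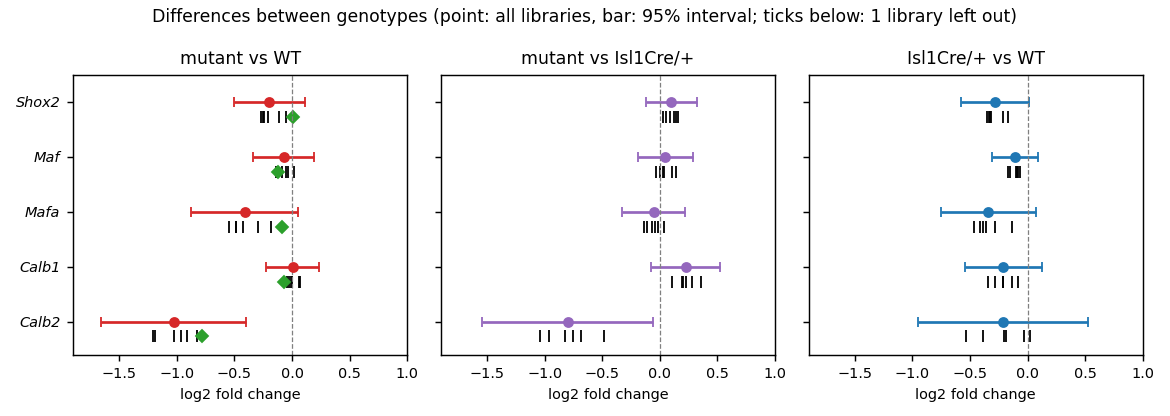
Log2 fold change of the 5 genes on the x axis, in a panel per comparison. Points with bars are the estimates from all libraries with 95% intervals, black ticks are estimates with 1 library left out, and the green diamond is the estimate without WT 1 and mutant 2. The interval of Calb2 lies below 0 in both comparisons of the mutant, while those of the other 4 genes include 0 in all 3 comparisons. As Calb2 was chosen for its lower level in the mutant, nothing follows from this.

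Compared with Isl1Cre/+, which shares the Cre allele with the mutant, Calb2 differed by -0.80 (SE 0.32, interval -1.54 to -0.06), 0.575 times the level of this control. Calb1 lay at 0.22 (SE 0.13, interval -0.08 to 0.52), Shox2 at 0.10 (SE 0.09), Maf at 0.05 (SE 0.10) and Mafa at -0.05 (SE 0.12). The criterion was met by Calb2 (1 of 5 genes, where 1.67% of all genes met it), and in none of the 5 did the libraries of the groups separate (7.65% of all genes). Nothing is read from these shares either. The comparison shares its mutant libraries with that against WT, so the 2 differences of Calb2 are not separate observations. Calb2 no longer met the criterion without mutant 2 (-0.75), mutant 3 (-0.69), Isl1Cre/+ 1 (-0.82) or Isl1Cre/+ 2 (-0.48), nor with limma voom (-0.73). Its difference ranged over 13 alternatives from -1.04 without Isl1Cre/+ 3 to -0.48. Calb1 was at 0.35 without Isl1Cre/+ 3, the only 1 of 14 alternatives in which it met the criterion, and at 0.10 without Isl1Cre/+ 1. Without mutant 2 the sign changed for Maf, to -0.03, and for Mafa, to 0.04. Shox2 ranged from 0.03 without Isl1Cre/+ 1 to 0.16 without mutant 2.

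For Isl1Cre/+ against WT the genes were tested, since the choice rested on the level of Calb2 in the mutant and named no difference between these controls. It was still made with earlier results of these data known, and the WT libraries are those of the comparison with the mutant. All 5 estimates were below 0, and none met the criterion, against 1.40% of all tested genes. The difference was -0.28 (SE 0.12) for Shox2, -0.34 (SE 0.18) for Mafa, -0.21 (SE 0.14) for Calb1, -0.11 (SE 0.08) for Maf and -0.21 (SE 0.31) for Calb2. In edgeR's quasi-likelihood test the unadjusted p was 0.0553 for Shox2, 0.0917 for Mafa, 0.188 for Calb1, 0.235 for Maf and 0.515 for Calb2, and the adjusted p (Benjamini-Hochberg over all 13200 genes) was 0.9999 for each. Of all tested genes 0% had an adjusted p under 0.05 in edgeR, while 236 had an unadjusted p under 0.05. Genes with an adjusted p under 0.05 numbered 1 with DESeq2, 0 with limma voom, 4 with the replicate block, 4 without a filter on low counts and 5 without WT 3, and 0 in the other 9 alternatives. Shox2 was the only 1 of the 5 whose groups did not overlap, where 5.66% of all genes did not. The 95% interval for Calb2 ran from -0.95 to 0.52, that is from 0.518 to 1.43 times WT, a range that includes a fall as large as that between mutant and Isl1Cre/+ and also a rise.

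Within this comparison, too, WT 1 mattered for Mafa and Shox2, whose differences were -0.13 and -0.17 without it. Without WT 2, Mafa met the criterion at -0.47 and Shox2 at -0.35 (adjusted p = 0.9955 in edgeR for each). Shox2 also met it, at -0.30, when all 3 genotypes entered 1 edgeR fit. Calb1 met it at -0.35 without Isl1Cre/+ 3. Calb2 changed sign without Isl1Cre/+ 3, to 0.02.

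In whole ganglia, fewer cells of a type and less RNA per cell cannot be told apart, and setting Calb2 against other genes of large sensory neurons within each library does not separate them either. These shares restate the lower counts for which Calb2 was chosen and are given as a description. As a share of the counts of Ntrk3, the neurotrophin receptor of proprioceptors and touch neurons, Calb2 reached 1.07% to 2.002% in WT, 0.937% to 1.72% in Isl1Cre/+ and 0.636% to 0.783% in mutant. As a share of Ntrk2, the receptor of rapidly adapting and D-hair neurons, it reached 1.53% to 2.41% in WT, 1.06% to 2.22% in Isl1Cre/+ and 0.896% to 1.23% in mutant. As a share of Maf it was 3.03% to 5.14%, 2.32% to 5.88% and 1.87% to 2.61% in the same order. As a share of Calb1 it was 9.50% to 19.3%, 7.58% to 19.6% and 6.24% to 8.02%. With each of these denominators, and with Slc17a7 and Nefh, all mutant libraries lay below all WT libraries, from which nothing follows, since Calb2 was chosen for its lower level in mutant and the log2 fold changes of the 6 other genes between mutant and WT were only -0.17 to 0.10. Against Isl1Cre/+ the shares separated for Ntrk3 and overlapped for the other 5 denominators.

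**Figure D3:**
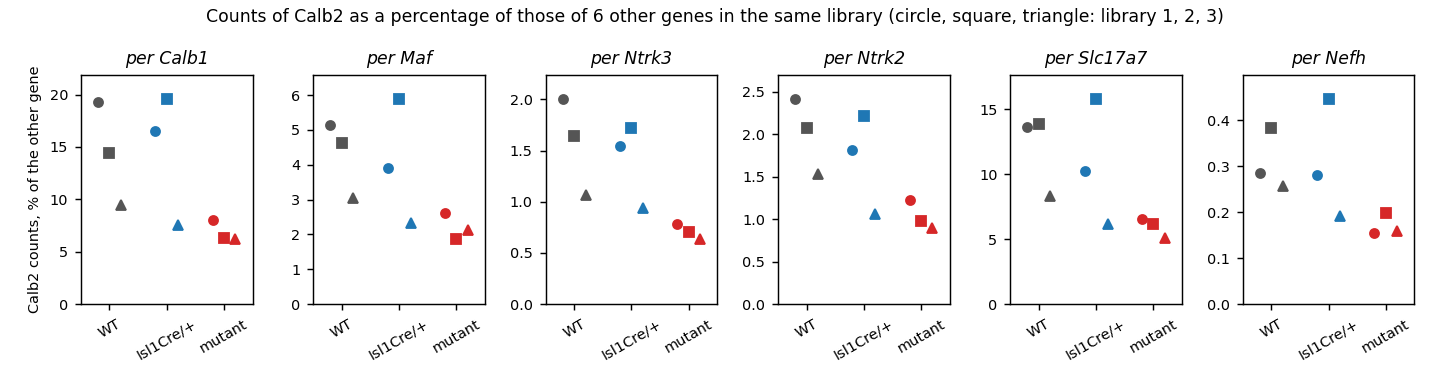
Counts of Calb2 as a percentage of the counts of 6 other neuronal genes in the same library, in a panel per gene, with genotype on the x axis and a point per library. In each panel the mutant libraries lie below the WT libraries, for Ntrk3 at 0.636% to 0.783% against 1.07% to 2.002%, which restates the difference for which Calb2 was chosen.

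Mafa and Shox2 went together from library to library more closely than any other pair of the 5 genes, and WT 1 was the highest library for each. As a share of the counts of Maf, Mafa reached 11.3% to 16.1% in WT, 10.3% to 11.9% in Isl1Cre/+ and 8.01% to 12.1% in mutant. Shox2 reached 22.6% to 28.7%, 20.5% to 25.3% and 19.2% to 27.3%. Over the 9 libraries, which share the 3 genotypes and the high WT 1, the log2 levels of Mafa and Shox2 had a Pearson r of 0.93 (Spearman rho 0.85), and their deviations from the genotype means an r of 0.96. For the other 9 pairs of the 5 genes r lay between -0.35 (Calb1 with Calb2) and 0.56 (Calb2 with Mafa).

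The genes whose levels were most like each member over the 9 libraries were no other mechanoreceptor factors. For Calb2 they were Polr3c (Pearson r 0.93), Smad1 (0.90) and Zmynd11 (0.89), for Calb1 Rps12-ps9 (0.94), Araf (0.94) and Slc35f4 (0.93), and for Maf Dnttip2 (0.92), Chst2 (0.90) and Ppp1r35 (0.90). For Mafa they were Kazn (0.96), AA414768 (0.96) and Stx11 (0.95), and for Shox2 Pigyl (0.96), Iqcc (0.96) and Mthfd2 (0.95). With 9 libraries and 13200 genes, r over 0.9 was reached by 35 genes for Mafa, 27 for Shox2, 9 for Calb1, 2 for Maf and 1 for Calb2. Spearman's rho kept 1 of the 3 genes for Calb1, Calb2 and Maf each and 0 of them for Mafa and Shox2, so these lists depend on the measure.

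Among the Maf family, which comprises large Maf proteins with an activation domain and small ones without it, Mafg had the highest level per kb (12.6 CPM per kb), with Maf and then Mafa next. Nrl, the large Maf of photoreceptors, did not reach 100 counts in any library. None of the 6 tested family members met the criterion in any of the 3 comparisons. Their median log2 fold change was -0.03 between mutant and WT, 0.06 between mutant and Isl1Cre/+ and -0.14 between Isl1Cre/+ and WT, beside medians of -0.01, 0.00 and 0.00 over all tested genes. Mafg differed by -0.03 between mutant and WT, against -0.41 for Mafa. Without WT 1 and mutant 2, the median between mutant and WT was -0.02. Mafa met the criterion between mutant and WT in 4 of 15 alternatives, and between Isl1Cre/+ and WT without WT 2.

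Of 22 calcium-binding proteins, 18 were tested, and Calb2, chosen for its lower level in the mutant, was the only 1 to meet the criterion in the comparisons of the mutant, from which nothing is read. In level per kb, Hpcal4 and Cabp1 were the only tested genes of the list besides Calb2 that lay below Calb1. Pvalb (parvalbumin), the EF-hand protein of proprioceptors, stood at 49.5 CPM per kb, with a log2 fold change of 0.06 between mutant and WT and 0.02 between mutant and Isl1Cre/+. Necab1 and Necab2, neuronal calcium-binding proteins, stood at 30.8 and 22.9 CPM per kb and differed by 0.04 and -0.06 between mutant and WT. Calm2, 1 of 3 calmodulin genes, was the highest of the list at 1308 CPM per kb. Scgn (secretagogin), the closest relative of the calbindins, had at most 53 counts and was not tested. The median of the 18 was -0.04 between mutant and WT, 0.01 between mutant and Isl1Cre/+ and -0.05 between Isl1Cre/+ and WT, where none met the criterion. Without WT 1 and mutant 2, the median between mutant and WT was 0.05.

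**Figure D4:**
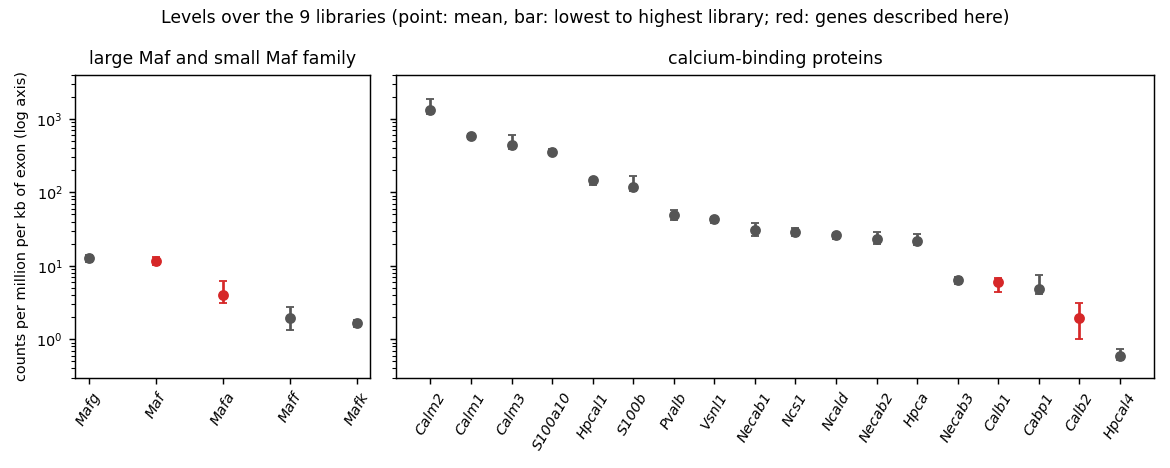
Level per kilobase of exon (CPM per kb, log axis) of tested genes of the Maf family and of the calcium-binding proteins, ordered by level. Points are means over 9 libraries and bars run from the lowest to the highest library. Maf at 11.8 and Mafa at 4.04 stand next after Mafg in their family, Calb1 at 6.01 and Calb2 at 1.93 near the low end of theirs.

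The receptors of mechanoreceptors did not differ by the criterion in any comparison (0 of 5). Ret, the receptor of early rapidly adapting neurons, was at 695 CPM in WT and 666 CPM in mutant, a log2 fold change of -0.06. Gfra2, its co-receptor, was at -0.13, Gfra1 at 0.02, Ntrk2 at -0.07 and Ntrk3 at 0.10 between mutant and WT. The paper also describes small nociceptive neurons with Ret that emerge later, so the level of Ret in whole ganglia need not be that of touch neurons. The median of the 5 was -0.06 between mutant and WT, -0.01 between mutant and Isl1Cre/+ and -0.03 between Isl1Cre/+ and WT. Without WT 1 and mutant 2, it was -0.02 between mutant and WT. Ntrk3 met the criterion between mutant and Isl1Cre/+, higher in mutant, without Isl1Cre/+ 2.

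Of 15 further transcription factors of mechanoreceptors and proprioceptors, 2 met the criterion between mutant and WT, Meis2 at -1.33 and Isl1 at -0.48, the genes that carry the engineered alleles. Meis2 (-1.23) was the only 1 between mutant and Isl1Cre/+, and Isl1 (-0.48) between Isl1Cre/+ and WT. Runx3, the factor of proprioceptors, was at -0.26 between mutant and WT, Rora at 0.23, Etv1 at -0.02 and Meis1, the paralog of Meis2, at -0.01. The median of the 15 was -0.09, 0.01 and -0.03 in the 3 comparisons. Without WT 1 and mutant 2, Meis2 and Isl1 were again the genes past the criterion between mutant and WT, and the median was -0.07.

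Of 17 channel, filament and transmitter genes of large sensory neurons, 14 were tested. Whrn (whirlin), a scaffold protein of proprioceptors, met the criterion between mutant and WT at -0.36, and Spp1 (osteopontin), found in proprioceptors and also in bone, between Isl1Cre/+ and WT at -1.01. Whrn lost its call in 6 of 15 alternatives, with the replicate block (-0.36) and without mutant 1 (-0.28), mutant 2 (-0.34), WT 1 (-0.28), WT 2 (-0.35) or WT 1 and mutant 2 together (-0.28). Spp1 lost its call without Isl1Cre/+ 1 (-0.79), Isl1Cre/+ 3 (-0.90) or WT 3 (-0.56). None met the criterion between mutant and Isl1Cre/+, where Spp1, at 0.82, passed it with the replicate block, the Wald test of DESeq2, no filter, 100 counts in every library, and without mutant 1 or Isl1Cre/+ 2. Piezo2, the mechanically gated channel of touch neurons, was at -0.04 between mutant and WT, as was Slc17a7, the vesicular glutamate transporter. Nefh, the heavy neurofilament of myelinated neurons, was at -0.17 with 1016 to 1912 CPM over the libraries. All 14 estimates were below 0 between mutant and WT, with a median of -0.09, but without WT 1 and mutant 2 only 3 of 14 were, with a median of 0.08 and none past the criterion. Between mutant and Isl1Cre/+ the median was -0.01 and between Isl1Cre/+ and WT -0.07.

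**Figure D5:**
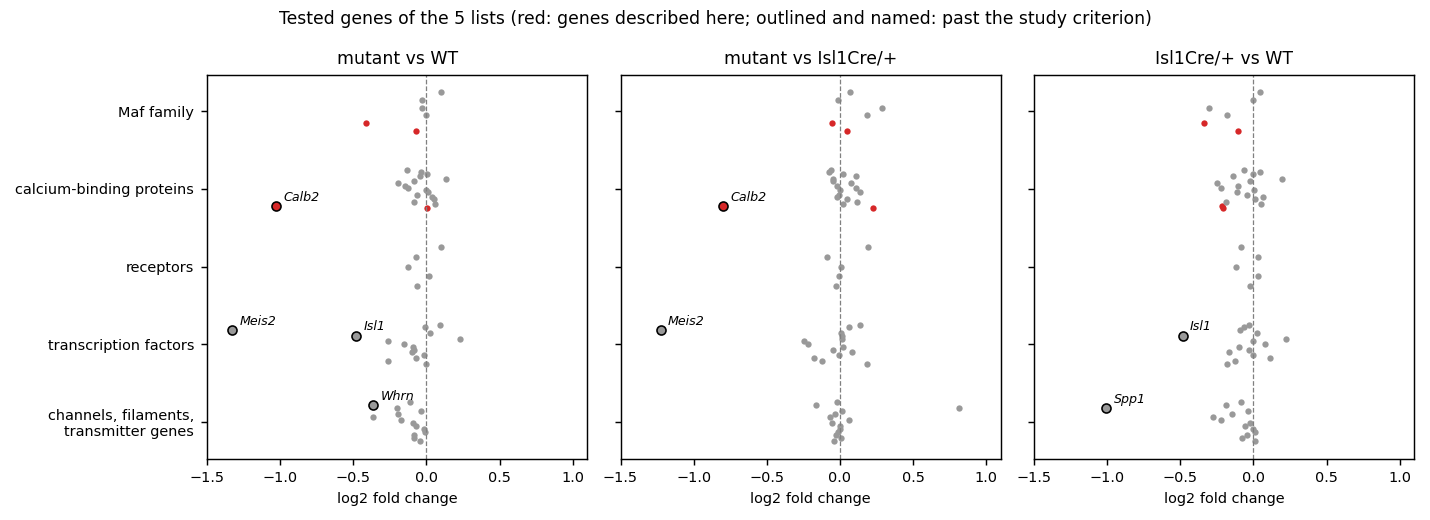
Log2 fold change of the tested genes of 5 lists, in a panel per comparison, with a row per list. Red points are Calb1, Calb2, Maf and Mafa, and outlined points are genes past the criterion of the study. Calb2, chosen for this difference, is at -1.03 and -0.80 in the comparisons of the mutant and lies among the other calcium-binding proteins at -0.21 between Isl1Cre/+ and WT.

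As Calb1, Calb2, Maf and Shox2 are also expressed in the spinal cord, markers of spinal cells were read beside them. Of 14 genes of spinal interneurons, 13 did not reach 100 counts in any library, and Lhx5, Sox14, Evx1 and Slc32a1 were at 0 in all Isl1Cre/+ libraries. Their summed level was 11.4 to 14.0 CPM in WT, 5.93 to 8.19 in Isl1Cre/+ and 7.79 to 9.36 in mutant. The sum was thus lower in mutant than in WT libraries, as was Calb2, and it overlapped between mutant and Isl1Cre/+ libraries, with the 2 highest values of the 6 in mutant 1 and mutant 3. Its part in the level of Calb2 was not tested. Markers of spinal motor neurons summed to 11.9 to 18.8 CPM over the 9 libraries, most of it from Slc5a7, and Mnx1 was at 0 in all Isl1Cre/+ and mutant libraries. Glial markers of the central nervous system summed to 72.0 to 186 CPM, most of it from Pdgfra, with a mean of 71.3 CPM over the 9 libraries. Olig1 and Olig2 of the same list averaged 0.784 and 0.368 CPM and did not reach 100 counts in any library. The sum is therefore not read as a level of spinal glia.

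Markers of tissue around the ganglia were read in the same way. The summed level of 7 skeletal muscle genes was 114 to 878 CPM in WT, 61.4 to 160 in Isl1Cre/+ and 132 to 2057 in mutant. For 7 genes of red cells it was 899 to 2141, 344 to 984 and 1213 to 3978 CPM. All 6 tested muscle genes and all 7 red cell genes met the criterion between mutant and Isl1Cre/+, higher in mutant, and between Isl1Cre/+ and WT, lower in Isl1Cre/+, while none did between mutant and WT, except for 4 red cell genes without mutant 1 and 3 without a filter on low counts. With 1 library left out, 3 to 6 muscle and 7 red cell genes met it between mutant and Isl1Cre/+, and 2 to 6 muscle and 0 to 7 red cell genes between Isl1Cre/+ and WT, the lowest of these counts without Isl1Cre/+ 3 for muscle and without Isl1Cre/+ 1 for red cells. Of the 6 muscle genes, limma voom left 3 between mutant and Isl1Cre/+ and 2 between Isl1Cre/+ and WT, the replicate block 4 and 3, and all genotypes in 1 fit 6 and 1 (Tnnt3). Of the red cell genes, 6 met it between Isl1Cre/+ and WT with the replicate block or with all genotypes in 1 fit. In 6 cartilage genes, the tissue in which Maf is also expressed, the sum was 47.3 to 97.3 CPM in WT, 40.4 to 67.6 in Isl1Cre/+ and 53.2 to 102 in mutant. Acan and Sox9 met the criterion between mutant and Isl1Cre/+, and Sox9 between Isl1Cre/+ and WT. Between mutant and Isl1Cre/+, Acan (1.117) lost its call without mutant 2 (0.93), mutant 3 (0.95), Isl1Cre/+ 1 (1.004) or Isl1Cre/+ 3 (0.90), and Sox9 (0.68) with the replicate block and without mutant 2 (0.56) or Isl1Cre/+ 2 (0.55). In 8 macrophage genes the sum was 77.4 to 89.9, 63.5 to 87.7 and 58.5 to 146 CPM, and none of the 7 tested met the criterion. Without mutant 1, 3 of them met it between mutant and WT and 6 between mutant and Isl1Cre/+, all higher in mutant, and in 3 other fits 1 gene did. Their part in the levels of the 5 genes was not tested.

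Further markers met the criterion in single genes. Among 6 endothelial genes, with sums of 247 to 438 CPM, Pecam1, Kdr and Flt1 were higher in Isl1Cre/+ than in WT and Kdr lower in mutant than in Isl1Cre/+. Pecam1 (0.35) lost its call with the replicate block, with library size only and in 5 of 6 fits with 1 library left out, at 0.21 without WT 1, 0.27 without Isl1Cre/+ 1 and 0.39 to 0.40 without Isl1Cre/+ 2, Isl1Cre/+ 3 or WT 3. Kdr lost that against WT (0.52) without Isl1Cre/+ 1 (0.41) or Isl1Cre/+ 3 (0.54) and stood at 0.31 without WT 1, and it lost that between mutant and Isl1Cre/+ (-0.37) with the replicate block, with all genotypes in 1 fit and without mutant 1 (-0.24), Isl1Cre/+ 1 (-0.26) or Isl1Cre/+ 3 (-0.40). Among 7 sympathetic genes, with sums of 16.3 to 29.7 CPM, Th was lower in mutant than in WT, and Dbh was lower in Isl1Cre/+ than in WT and higher in mutant than in Isl1Cre/+. The call of Dbh between mutant and Isl1Cre/+ (2.95) was lost with the replicate block, with all genotypes in 1 fit and without mutant 3 (1.85), Isl1Cre/+ 1 (2.37) or Isl1Cre/+ 3 (2.38), and its difference ranged up to 7.67 with another library left out. Krt10 was lower in Isl1Cre/+ than in WT among 5 keratinocyte genes, whose sums were 5.96 to 10.47 CPM, but not without Isl1Cre/+ 1 (-0.31). Of the sensory neuron markers, Trpv1, the heat-gated channel of nociceptors, was lower in mutant than in WT at -0.39, as 1 of 11 nociceptor genes, whose median was -0.02 (0.11 without mutant 2) with 4 above 0 and with 1 gene not overlapping in each direction. Whrn (-0.36) and Chodl (-0.35) were lower as 2 of 8 proprioceptor genes, whose median was -0.13 with 2 above 0. Without WT 1 and mutant 2, Trpv1 and Th still met the criterion between mutant and WT, whereas Whrn and Chodl (-0.25) did not. Chodl also lost its call without mutant 2 (-0.29), mutant 3 (-0.28), WT 1 (-0.29) or WT 3 (-0.34), and Th without WT 2 (-0.28). None of 7 Schwann and satellite glial genes, with sums of 898 to 1135 CPM, met the criterion, whereas Sox10 met it without mutant 3 in both comparisons of the mutant, and against Isl1Cre/+ also without Isl1Cre/+ 2 and without a filter, and Erbb3 against Isl1Cre/+ without mutant 3.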

How the data were processed

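The authors extracted RNA from E18.5 DRG, selected poly(A) RNA, prepared libraries with molecular identifiers, aligned reads to mm10 with STAR, removed duplicates and made the deposited counts per gene with HTSeq. The deposited log2 fold changes and log2 mean expression, the p-values, unadjusted and adjusted, and the scores (moderated statistic and log odds) are those the authors obtained with limma, and they were not used here. The 5 genes and all gene and marker lists were chosen with earlier results of these data known.

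Genes that reached 100 counts in any library were fitted per pair of genotypes with edgeR 4.0.16 (TMM, quasi-likelihood, two-sided, Benjamini-Hochberg over 13200 genes) in R 4.3.3. CPM use effective library sizes, log2 CPM a prior count of 2, and intervals are 95%. Alternatives were DESeq2 1.42.0, limma voom (limma 3.58.1), other scalings and filters, 1 fit of all genotypes, a replicate block and each library left out. The pair WT 1 and mutant 2 was left out after seeing the data. The procedure was tested on simulated data.

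Genes named are the 5, Meis2 and Isl1, the 3 tested genes with the highest Pearson r for each of the 5, every list gene past the criterion, and list genes described by role. Identifiers were matched to GENCODE M21, and coding sequences aligned with Biopython 1.88. Genome coordinates are 1-based. No 2 libraries of a genotype agreed within sampling noise. Some list genes are not reported here by name.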

Additional observations from a re-analysis of the deposited data

How the results depend on the processing

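The genes past the criterion numbered, when low counts were not filtered out, 408 between mutant and WT (42 in the reported fit), 1028 between mutant and Isl1Cre/+ (221) and 845 between Isl1Cre/+ and WT (185). With 100 counts required in every library, which removed Calb2 from the test, they were 139 between mutant and Isl1Cre/+ and 104 between Isl1Cre/+ and WT. Leaving out 1 library gave 40 to 132, 167 to 407 and 102 to 340 genes, and leaving out WT 1 and mutant 2 together, chosen after seeing the data, gave 182 between mutant and WT. That pair also moved Mafa to -0.085 and Shox2 to 0.0048 between mutant and WT. Between Isl1Cre/+ and WT, with 1 library left out, Calb1 ranged from -0.35 to -0.084, Calb2 from -0.53 to 0.024, Mafa from -0.47 to -0.13 and Shox2 from -0.35 to -0.17, and Shox2 passed the criterion at -0.30 with all genotypes in 1 fit. The cause of these moves was not tested. Whether replicate numbers pair the libraries is not given in the sources used here. Deviations of same-numbered libraries from their genotype means correlated at -0.60 to 0.39. With the replicate block, 31, 177 and 236 genes passed the criterion, Calb2 was at -1.01 and -0.75 in the comparisons of the mutant, and Mafa passed it between mutant and WT at -0.39. Per kb of the longest transcript in place of all exons, the mean level was 15.2 CPM for Maf and 6.90 CPM for Calb1. Counts of Calb2, 43 to 145 per library, set the limit of its precision from counting alone.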
